A study of Mus musculus with 43 samples.

Results

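The genes described here are 10 that code mostly for secreted proteins, Slpi, Lcn2, Ltf, Spp1, Clu, Igfbp4, Gas6, Vcam1, Akap12 and Ly6d, in 43 RNA-sequencing libraries labelled as the mouse pancreatic tumor cell line PD798. The members were selected on their measured TPM, by the size of the difference between 2 Bulk RNA libraries (RNA-1 and RNA-2) and 12 libraries of a workflow test (the processing libraries of the plots), so that difference is given below as a description with no test. All 10 had a row among the 13817 genes of the table that holds the Bulk RNA libraries, and 9 had a row among the 13845 genes of the workflow table; Ltf was not analysed in the workflow libraries. The label of secreted proteins covers 7 of the 10, since Vcam1 codes for a membrane receptor, Ly6d for a lipid-anchored surface protein and Akap12 for a scaffold inside the cell.

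PD798 was established from a tumor that arose in the pancreas of a KPCY mouse, which carries Pdx1-Cre, a floxed p53 allele (p53 L/+) and the yellow fluorescent reporter Rosa YFP/YFP. Pdx1-Cre acts in the pancreatic epithelium. Cells were grown in DMEM with fetal bovine serum, and every library was a poly(A) library made with SMART-Seq v4, a kit that does not mark strand. The workflow libraries, 3 in each of 4 conditions, came from RNA of many cells. By the study's text, Pre-enriched cells were given magnetic particles and red blood cell lysis buffer, passed through magnetic and acoustic pre-enrichment, and sorted. FACS-only cells were from the same sample, sorted on a BD Influx without pre-enrichment. Pre-FACS was an aliquot banked before sorting, and Mock cells were held on the bench in staining buffer. The input series held 11 single cells, 12 pools of 10 cells, 6 pools of 100 cells, all YFP-positive and sorted out of mouse blood after pre-enrichment, and the 2 Bulk RNA libraries. GEO labels give the Bulk RNA the pre-enrichment and sorting treatment, whereas the study's text describes it as RNA of the cell line used as a control. The labels also name blood as the matrix of every library, whereas the text describes the workflow cells without blood. Separate cultures are named for none of the libraries.

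Values are TPM, transcript levels scaled for length and library total, and sequencing depth cannot be read from them. The 2 tables were normalized separately, so levels are set side by side across them and not tested. Table, library preparation, culture and treatment cannot be told apart in the difference between them, and whether both tables hold the same cell line, as their labels say, was not tested. The log2 profiles of the Bulk RNA libraries correlated with those of the workflow libraries at r = 0.872 to 0.878 across 12366 genes, against 0.9945 between the Bulk RNA libraries. In all, 4 libraries of the input series stood apart from their labels. Single cells 6 and 9 had 11438 and 11223 genes at 1 TPM or more, against 3919 to 8598 in the other 9 cells. Of 2175 genes that reached 100 TPM in RNA-1 as well as RNA-2, none was listed at 0 in cells 6 and 9, against 2.44% to 20.4% of them in the other cells. The profiles of those cells and of 10-cell pools 5 and 12 had a median r of 0.973 to 0.992 with 100-cell pools 1 to 3, whereas the other 10-cell pools had 0.884 to 0.954. Values of the members that move by over 1.5 times without these 4 libraries are given with and without them.

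SLPI, lipocalin-2 and lactoferrin are proteins of mucosal defence. SLPI inhibits neutrophil serine proteases, lipocalin-2 binds iron-loaded bacterial siderophores, and lactoferrin binds iron itself; epithelia as well as neutrophils make them, and inflammatory signalling through NF-kB can induce the first pair. Osteopontin (Spp1) is a matrix phosphoprotein that binds integrins and CD44, clusterin (Clu) is an extracellular chaperone, and IGFBP4 binds insulin-like growth factors. GAS6 is the vitamin K-dependent ligand of the receptors TYRO3, AXL and MERTK. VCAM1 is an adhesion receptor for integrins, AKAP12 tethers protein kinases A and C, and Ly6d belongs to the Ly6/uPAR family of surface proteins. Ductal pancreatic tumor cells are known to make osteopontin, clusterin and lipocalin-2.

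The sequence just upstream of the start site is shown for a pair of members that were high in the Bulk RNA libraries (Slpi, Lcn2) and a pair that were high in the workflow libraries (Spp1, Igfbp4). Each run is the 250 bases before the RefSeq start site on GRCm38.p6, read in the direction of transcription, with matches to the searched motifs in capitals. The windows are chr2:164356508-164356757 (minus strand) for Slpi, chr2:32387740-32387989 (minus) for Lcn2, chr5:104434861-104435110 (plus) for Spp1 and chr11:99040994-99041243 (plus) for Igfbp4.
Slpi: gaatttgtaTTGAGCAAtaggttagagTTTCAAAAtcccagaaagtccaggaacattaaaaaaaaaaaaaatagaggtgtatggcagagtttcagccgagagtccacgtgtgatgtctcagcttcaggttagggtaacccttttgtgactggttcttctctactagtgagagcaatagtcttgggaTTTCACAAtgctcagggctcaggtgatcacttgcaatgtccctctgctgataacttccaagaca
Lcn2: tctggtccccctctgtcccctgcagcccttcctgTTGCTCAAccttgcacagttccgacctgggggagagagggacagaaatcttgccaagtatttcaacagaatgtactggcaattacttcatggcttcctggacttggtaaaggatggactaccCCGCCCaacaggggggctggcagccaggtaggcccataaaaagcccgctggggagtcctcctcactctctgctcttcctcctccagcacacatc
Spp1: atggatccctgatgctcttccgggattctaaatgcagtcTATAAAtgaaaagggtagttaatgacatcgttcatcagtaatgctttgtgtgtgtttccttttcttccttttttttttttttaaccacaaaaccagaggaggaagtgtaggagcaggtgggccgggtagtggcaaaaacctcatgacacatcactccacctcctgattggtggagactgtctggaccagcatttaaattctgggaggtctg
Igfbp4: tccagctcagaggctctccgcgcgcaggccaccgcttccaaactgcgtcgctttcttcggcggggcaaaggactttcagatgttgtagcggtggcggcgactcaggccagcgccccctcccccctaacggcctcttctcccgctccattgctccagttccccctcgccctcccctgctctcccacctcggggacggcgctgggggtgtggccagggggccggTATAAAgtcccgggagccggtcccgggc

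Of the 10 genes, 6 had a RefSeq window, and Spp1 had a second one, which made 7. The motifs searched on both strands, and the share of 32851 mouse windows of the same length that held them, were TATAAA (12.4%), GGGCGG (32.7%), TTNNGNAA (36.8%), TGANTCA (6.75%) and the NF-kB consensus (3.90%). TTNNGNAA, letters that C/EBP sites share, occurred 3 times before Slpi, at −241 to −234, −223 to −216 and −64 to −57, and once before Lcn2, at −216 to −209. Lcn2 also had GGGCGG, on the opposite strand, at −94 to −89. TATAAA lay at −28 to −23 before Igfbp4 and at −211 to −206 in the printed window of Spp1. TTNNGNAA was not confined to Slpi and Lcn2. The second window of Spp1 held it at −156 to −149 and −15 to −8. It also lay at −217 to −210 and −75 to −68 before Ltf, and at −228 to −221 before Gas6. Gas6 had GGGCGG 4 times, from −66 to −3. None of the 7 windows held TGANTCA or the NF-kB consensus, which says only that these letters are not within these 250 bases. The windows of Slpi and Lcn2 lie inside the gene spans of the GENCODE annotation, which begin further upstream. Bases before those other starts were not searched.

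In all, 5 of the 9 members with values in both tables were far higher in the Bulk RNA libraries than in the workflow libraries and 4 were far lower. For the difference on the log2(TPM + 1) scale, Bulk RNA minus workflow, the median over the 12889 genes in both tables was −0.05, with an interquartile range of −0.51 to 0.36. Of those genes, 53 differed by more than 5 log2 units, 36 higher and 17 lower in Bulk RNA, and these held 5 and 4 of the members. Both Bulk RNA values lay above all 12 workflow values for 27.5% of all genes and below all 12 for 33.5%, so non-overlap alone was common and the members were set apart by size, the measure on which they were selected.

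Slpi stood at 4778 and 4793 TPM in RNA-1 and RNA-2 and at 1.69, 2.27 and 3.37 TPM (lowest, median, highest) in the 12 workflow libraries. That is a ratio of means of 1978 and the first rank from the top of all genes, with a log2 difference of 10.47. Lcn2 had 4743 and 4685 TPM against 4.75, 6.53 and 8.64 TPM, a ratio of 714 and a log2 difference of 9.30. Both genes were among the abundant transcripts in one table and within a few TPM of 0 in the other. Ltf, the other iron-binding member, was at 133 and 122 TPM in the Bulk RNA libraries.

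Akap12 followed the same direction, with 1460 and 1448 TPM against 0.601, 1.09 and 2.00 TPM, a ratio of 1252 and a log2 difference of 9.42. Gas6 was at 56.2 and 60.5 TPM in Bulk RNA, whereas 10 of the 12 workflow libraries were above 0 and the highest reached 0.559 TPM. Ly6d was at 65.2 and 68.9 TPM in Bulk RNA and was listed at 0 in 11 of the 12 workflow libraries, the other being Pre-FACS 1 at 0.743 TPM. No ratio is given for these last genes because of the zeros; their log2 differences were 5.54 and 6.02.

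Spp1 was the most abundant member in the workflow libraries, at 12042, 13163 and 13609.7 TPM, and had 212 and 191 TPM in Bulk RNA, a ratio of 64.6 in the other direction. Clu had 10675, 11547 and 12464 TPM in the workflow libraries against 152 and 158 TPM, a ratio of 73.7. Igfbp4 had 960 to 1225 TPM (median 1074) against 10.6 and 11.9 TPM, a ratio of 94.9. Vcam1 had 106 to 152 TPM (median 129) against 0.651 and 0.322 TPM, a ratio of 260. The log2 differences of Spp1, Clu, Vcam1 and Igfbp4 were −6.01, −6.19, −6.43 and −6.45, and their ranks from the lowest of all genes were 5, 4, 3 and 2.

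**Figure D1:**
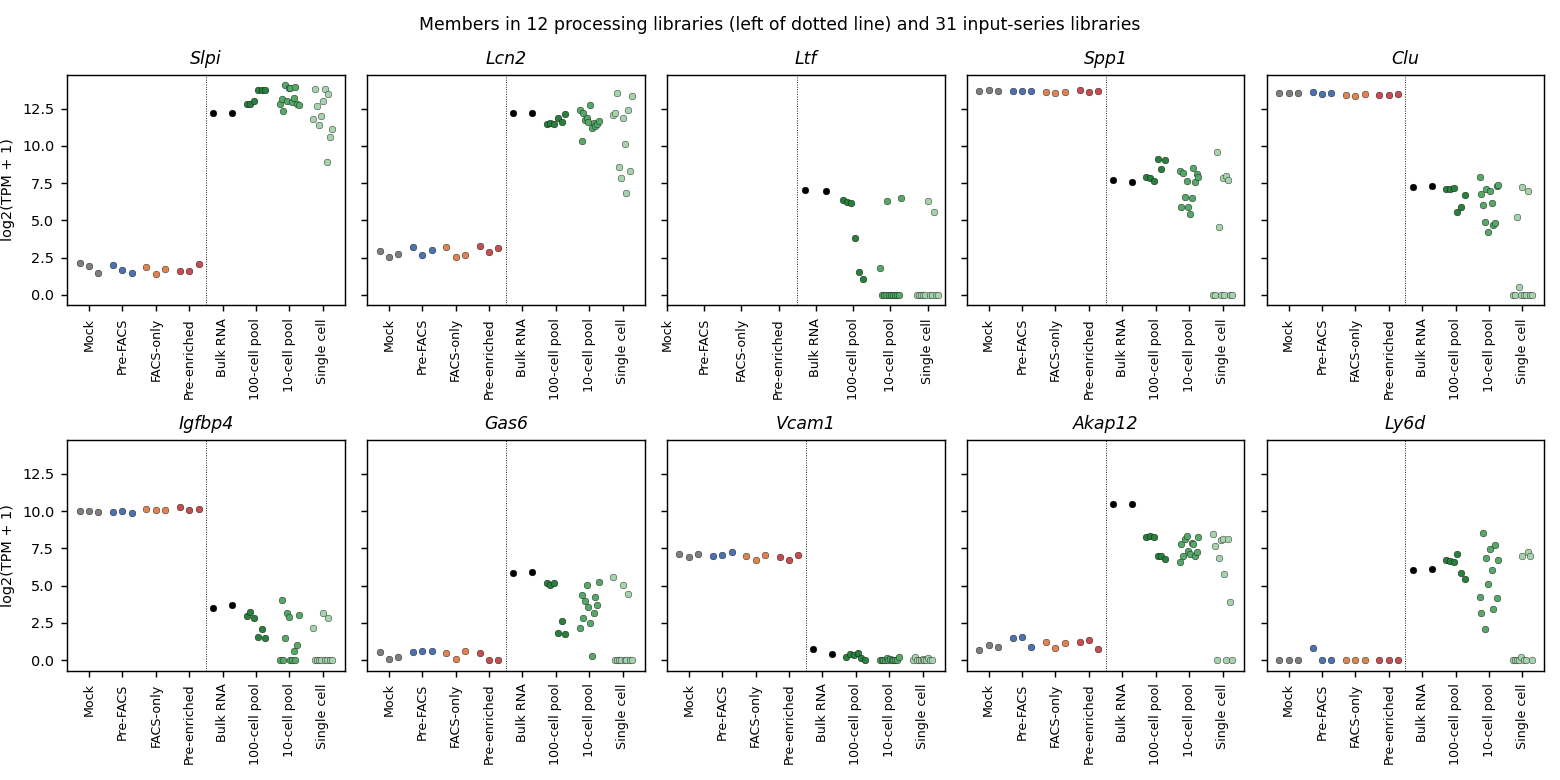
Level of each member as log2(TPM + 1), 1 point per library, by group. Ltf has no workflow points because it was not analysed there; in the other 9 panels the Bulk RNA points lie wholly above or wholly below the 12 workflow points, as for Slpi (4778 and 4793 against 1.69 to 3.37 TPM).

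**Figure D2:**
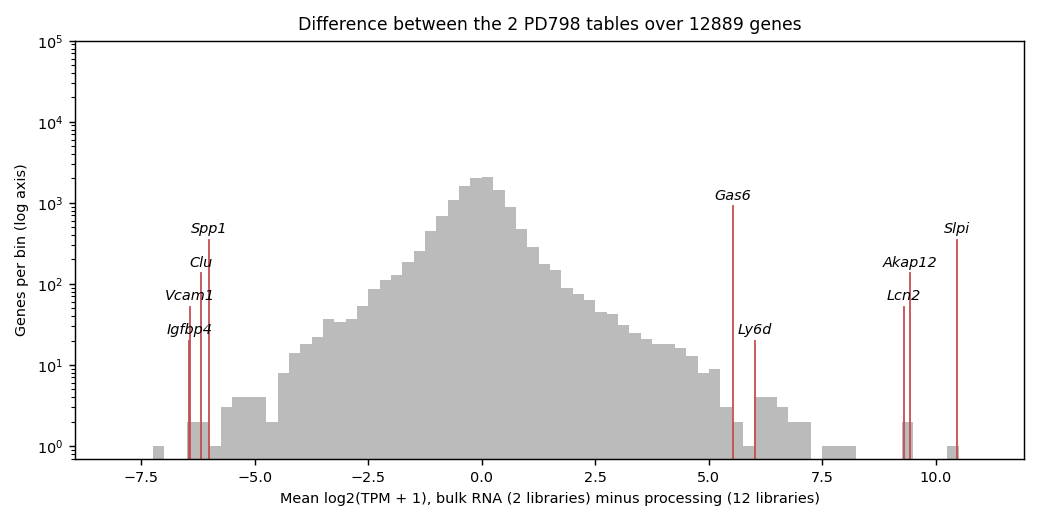
Difference of Bulk RNA and workflow means on the log2(TPM + 1) scale for the 12889 genes in both tables, with the members marked. The mass of genes lies near the median of −0.05 and the 9 members lie beyond 5 units on either side.

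Markers of ductal epithelium were present in both tables, with 10 of 10 measured. Their summed level was 24927 to 28469 TPM in the workflow libraries and 28404 and 28934 TPM in Bulk RNA. Most of that sum came from the keratins Krt7, Krt8, Krt18 and Krt19, so it shows mainly that keratins were abundant in both. Whether the label of an epithelial line holds was not tested. In Bulk RNA 3 of the 10 markers lay above all 12 workflow values and 4 below, where 27.5% and 33.5% of all genes did so. Those of largest difference were Cldn7, Epcam and Muc1. Cldn7 was at 2.78 to 7.65 TPM in the workflow libraries and at 586 and 570 TPM in Bulk RNA. Epcam was at 32.1 to 38.9 against 811 and 842 TPM, and Muc1 at 854 to 987 against 56.0 and 51.8 TPM. Others differed little, such as Cdh1 and Krt18, with log2 differences of −0.11 and −0.02. Since neutrophils also make Slpi, Lcn2 and Ltf, their markers are given here. Of 22 listed, 6 were measured in the input series, and they summed to 47.5 and 62.7 TPM in Bulk RNA, mainly S100a8 (37.4 and 51.0) and S100a9 (8.45 and 9.93). Chil3 was listed at 0 in both. Their sum ran from 0 to 116 TPM in single cells, 0 to 97.9 in 10-cell pools and 36.3 to 149 in 100-cell pools, and only Fcgr3, at 0.289 to 3.34 TPM, was measured in the workflow libraries. Macrophage markers (6 of 18 and 4 of 18 measured) summed to 164 and 171 TPM in Bulk RNA. Their workflow sum was 312 to 366 TPM. Cd14 made up most of both sums, at 124 and 138 against 293 to 347 TPM. Mrc1 was also lower in Bulk RNA (0.468 and 0.978 against 6.82 to 11.7 TPM). Cd68 was higher (36.6 and 30.7 against 6.18 to 13.6 TPM). B-lymphocyte markers (4 of 10 and 2 of 10) summed to 8.72 and 8.98 against 0.0914 to 3.05 TPM. Blnk, at 6.20 and 5.75 TPM, made up most of that Bulk RNA sum and was not analysed in the workflow libraries. For both kinds of marker the genes summed differ between Bulk RNA and workflow, so the sums are not like for like. Of 16 fibroblast and endothelial markers, 4 were measured in the workflow libraries, at a sum of 1.19 to 2.39 TPM, and 0 in the input series. What other cells add to the members' levels was not tested, and in a bulk sample more cells of a type and more RNA per cell cannot be told apart.

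The direction seen in Bulk RNA was carried by the sorted samples, which came from the same table. In the 12 pools of 10 cells, Slpi, Lcn2, Akap12 and Ly6d lay above the range of the workflow libraries in every pool and Spp1, Clu, Igfbp4 and Vcam1 below it in every pool. Over all genes, 9.25% were above and 38.3% below in the same way. In the 6 pools of 100 cells 5 members were above, Gas6 added, and the same 4 below, where 12.9% and 46.8% of all genes did so. In the 11 single cells 2 members, Slpi and Lcn2, were above in every cell and those 4 below, against 0.83% and 32.3% of all genes. A gene at 0 counts as below, and 6 to 8 of the 11 cells were listed at 0 for each of the 4 low members.

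Slpi was present in every sorted sample. Its lowest, median and highest levels were 491, 4035 and 14687 TPM in single cells, 5171, 8734 and 17384 TPM in 10-cell pools, and 7068, 10979 and 13974 TPM in 100-cell pools. All 18 pools were thus above both Bulk RNA libraries, the only member of 10 for which this held, where 7.27% of 13817 genes did so. Lcn2 ranged more widely among cells, from 111 TPM in cell 8 to 11860 TPM in cell 3, with a median of 3736 TPM, or 1108 TPM without cells 6 and 9. Its 10-cell pools had 1300, 3239 and 6716 TPM and its 100-cell pools 2789, 3044 and 4454 TPM. Cells 2, 3, 6 and 9 were at or above the median of both genes and cell 8 was the lowest for both, whereas cell 11 had 10352 TPM of Lcn2 with 2236 of Slpi and cell 7 had 14188 TPM of Slpi with 1108 of Lcn2.

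Ltf was listed at 0 in 9 of 12 pools of 10 cells, the others being pool 1 at 2.46 TPM, pool 5 at 78.1 and pool 12 at 89.1 TPM. Among single cells only cell 6 (79.7 TPM) and cell 9 (47.3 TPM) were above 0. The 6 pools of 100 cells had 82.7, 72.8 and 70.9 TPM in pools 1 to 3 and 13.2, 1.84 and 1.08 TPM in pools 4 to 6. In all 11 of 29 sorted samples had Ltf above 0, and 7 of 25 without the 4 libraries that stood apart; without them no single cell had any.

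Akap12 was lower in every pool than in Bulk RNA. Its 10-cell pools had 97.4, 187 and 320 TPM, its 100-cell pools 306, 318 and 308 TPM (pools 1 to 3) and 124, 126 and 112 TPM (pools 4 to 6), and its single cells ran from 0 to 357 TPM with a median of 113, or 54.9 TPM without cells 6 and 9. Gas6 was above 0 in 3 cells, cells 1, 6 and 9 at 46.2, 31.7 and 21.1 TPM, thus in 1 of 9 without cells 6 and 9, and ranged from 0.218 to 36.9 TPM in 10-cell pools, with a median of 11.4 and, without pools 5 and 12, a highest value of 19.9 TPM. Ltf, Gas6 and Akap12 were below both Bulk RNA libraries in all 18 pools, which 36.5% of all genes were. Ly6d ranged from 3.34 to 377 TPM in 10-cell pools, with a median of 49.1, or 26.0 TPM without pools 5 and 12. Among cells it was above 0 in 4 of 11, or 2 of 9 without cells 6 and 9, with 153 TPM the highest. Its 100-cell pools had 105, 97.9, 96.8, 139, 56.7 and 42.7 TPM in order of number, on both sides of the Bulk RNA level.

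The members that were low in this table stayed low in each kind of sample. Spp1 had 42.2, 194 and 367 TPM in 10-cell pools and 202, 292 and 554 TPM in 100-cell pools, and 5 of 11 cells were above 0, or 3 of 9 without cells 6 and 9, with cell 3 the highest at 762 TPM. Clu had 17.9, 89.1 and 240 TPM in 10-cell pools and 46.0, 122 and 144 TPM in 100-cell pools, and 4 cells were above 0, with 153 TPM the highest, or 2 of 9 without cells 6 and 9, with 37.2 TPM the highest. Igfbp4 was above 0 in 7 of 12 pools of 10 cells, with a median of 0.764 and 15.6 TPM the highest; without pools 5 and 12 it was in 5 of 10, with a median of 0.263 TPM. Its 3 cells above 0 were again cells 1, 6 and 9, with 7.82 TPM the highest, and without cells 6 and 9 only cell 1 was left, at 3.52 TPM. Vcam1 reached 0.166 TPM in 10-cell pools, 0.417 TPM in 100-cell pools and 0.155 TPM in cells, and without pools 5 and 12 its highest 10-cell pool was at 0.0757 TPM. It was above 0 in 3 of 12 pools of 10 cells and in 3 of 11 cells, or in 1 of each without the 4 libraries. The highest sorted sample of Spp1, at 762 TPM, was still far under the lowest workflow library, at 12042 TPM.

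Within the 100-cell pools, pools 1 to 3 and pools 4 to 6 had different levels of several members. Slpi had 7229, 7068 and 8424 TPM in the first 3 and 13735, 13533 and 13974 TPM in the others. Gas6 had 35.5, 31.8 and 36.1 TPM against 2.48, 5.12 and 2.42 TPM, and Clu 138, 138 and 144 TPM against 46.0, 57.5 and 106 TPM. Slpi, Lcn2 and Spp1 were higher in pools 4 to 6, and Ltf, Clu, Igfbp4, Gas6 and Akap12 were lower, while Ly6d and Vcam1 overlapped. Of all genes, 14.5% were higher and 54.4% lower in pools 4 to 6 in the same way, so separation of the pools was common. The labels give no difference between these pools, and profiles of pools 1 to 3 correlated with those of 4 to 6 at 0.875 to 0.900, less than pools 4 to 6 did with each other (0.974 to 0.980).

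**Figure D3:**
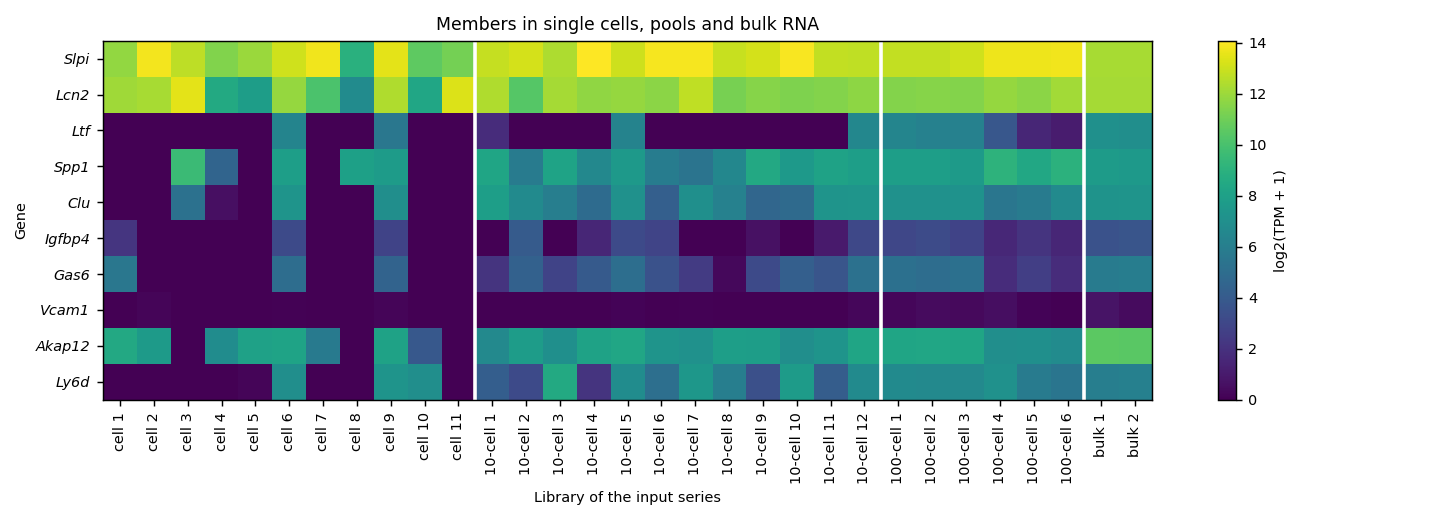
Level of the 10 members, as log2(TPM + 1), in the 31 libraries of the input series, ordered by kind and number. Slpi and Lcn2 are high in every column, and Ltf is above 0 in 2 single cells, 3 pools of 10 cells, all 6 pools of 100 cells and both Bulk RNA libraries.

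The spread between libraries was described by the SD of log2(TPM + 1), beside the 2175 abundant genes defined above, whose median SD was 1.72 in single cells, 0.382 in 10-cell pools and 0.526 in 100-cell pools. In single cells Slpi had an SD of 1.51 and Lcn2 of 2.39, while Clu had 3.04, Ly6d 3.29, Akap12 3.58 and Spp1 4.11, above the 90th percentile of 2.87 for those genes. Without cells 6 and 9, where that percentile was 3.02, Akap12 (3.65) and Spp1 (3.91) stayed above it and Clu (1.74) and Ly6d (2.32) did not. In 10-cell pools Slpi, Lcn2 and Akap12 had 0.576, 0.609 and 0.568, and Spp1, Clu, Gas6, Igfbp4, Ly6d and Ltf had 1.08, 1.24, 1.38, 1.53, 2.05 and 2.48, above the 90th percentile of 0.836. Without pools 5 and 12 Ltf had 0.567, under the percentile of 0.760, and the other 5 stayed above it. The members' levels are partly lower than those of the genes set beside them, and the part of counting error in their spread was not tested. In pools of 10 cells, 2 to 3 of the 10 members were listed at 0 in 10 of 12, and none in pools 5 and 12.

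Genes with the most similar pattern over the 18 pools were found by Pearson's r of log2(TPM + 1) among 8438 genes with a mean of at least 5 TPM. For Slpi they were Cxcl1 (0.754), Sprr2k (0.745) and Hn1 (0.732), and for Lcn2 Mir22hg (0.854), Ninj2 (0.820) and Snora68 (0.795). For Ly6d they were Cxcl3 (0.788), Trpt1 (0.753) and Faap20 (0.750), and for Clu they included Trove2 (0.895) and Glul (0.814). Spp1 was followed by Lmbrd1 (0.918), Tnfsf9 (0.896) and Cdc123 (0.851). Ltf, Gas6 and Akap12 had r of 0.915 to 0.948 with their first 3 genes, which were Apoa1, Adipor2 and Eif4ebp2 for Ltf, Tut1, Hspa2 and Rbm14 for Gas6, and Smarcc1, Golga4 and Rnf20 for Akap12. Igfbp4 and Vcam1 were under the level required. These r are descriptions: the pools share their cell line, and the likeness of some pools to each other enters each of them. Without 10-cell pools 5 and 12 the r of these genes ran from 0.706 to 0.937.

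The 4 workflow conditions were compared with each other by limma on log2(TPM + 1), a contrast that did not enter the selection of the members. Of 9 members, 7 passed the requirement of 1 TPM in 3 libraries, and Gas6 and Ly6d did not. None of the 7 differed among the conditions at an adjusted p of 0.05, with 2 at an unadjusted p under 0.05, where 0.107% of 12159 genes did so (13 called, 919 at an unadjusted p under 0.05). Nor was any member called in the 6 comparisons of pairs, in which 0.0493% of all genes were called for Pre-enriched against Pre-FACS, 0.123% for FACS-only against Pre-FACS, 0.00822% for Mock against Pre-FACS, and 0% for Pre-enriched against Mock, Pre-enriched against FACS-only and FACS-only against Mock. At an unadjusted p under 0.05 these pairs had 2, 3, 0, 2, 0 and 2 members and 1116, 846, 551, 945, 821 and 684 genes, in that order. With no separate cultures named, the p-values measure only the spread between these libraries, which may be technical.

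Igfbp4, which sequesters insulin-like growth factors, came closest to the threshold. It had 972, 1013 and 960 TPM in the Pre-FACS libraries, 1049, 1055 and 1006 in Mock, 1118, 1093 and 1093 in FACS-only, and 1225, 1099 and 1136 in Pre-enriched. Its mean was 982 ± 28.1 TPM (SD, n = 3) in Pre-FACS and 1153 ± 64.8 TPM (SD, n = 3) in Pre-enriched. By limma the log2 difference of Pre-enriched and Pre-FACS was 0.23 (SE 0.0475, adjusted p = 0.107), and that of FACS-only and Pre-FACS was 0.17 (adjusted p = 0.383). Over the 4 conditions the adjusted p of Igfbp4 was 0.259 by limma. Igfbp4 was also the member of smallest p in Pre-enriched against Mock (0.15, SE 0.0475, adjusted p = 0.475 by limma).

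The other abundant members differed little between conditions. Spp1 had 12536, 12042 and 12433 TPM in FACS-only and 12611 to 13609.7 TPM in the 9 other workflow libraries. Its adjusted p among conditions was 0.674 by limma. It was the member of smallest p in FACS-only against Mock (log2 difference −0.12, adjusted p = 0.812 by limma) and in Pre-enriched against FACS-only (0.08, adjusted p = 0.771 by limma). Clu had 12464, 11660 and 11746 TPM in Pre-FACS and 11045, 10722 and 11225 TPM in Pre-enriched. That was a log2 difference of −0.12 (SE 0.0459, adjusted p = 0.442 by limma). Vcam1 had condition means of 120 to 137 TPM. For the members near the detection limit, Slpi had condition means of 2.26 to 2.67 TPM, Lcn2 of 5.68 ± 0.924 TPM (SD, n = 3) in Mock to 7.64 ± 1.10 TPM in Pre-enriched, and Akap12 of 0.815 to 1.55 TPM. Akap12 had the smallest p of the members in Mock against Pre-FACS (log2 difference −0.46, SE 0.252, adjusted p = 0.997 by limma). The adjusted p among conditions was 0.979 for Slpi, 0.832 for Lcn2, 0.558 for Clu, 0.783 for Vcam1 and 0.858 for Akap12 by limma.

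**Figure D4:**
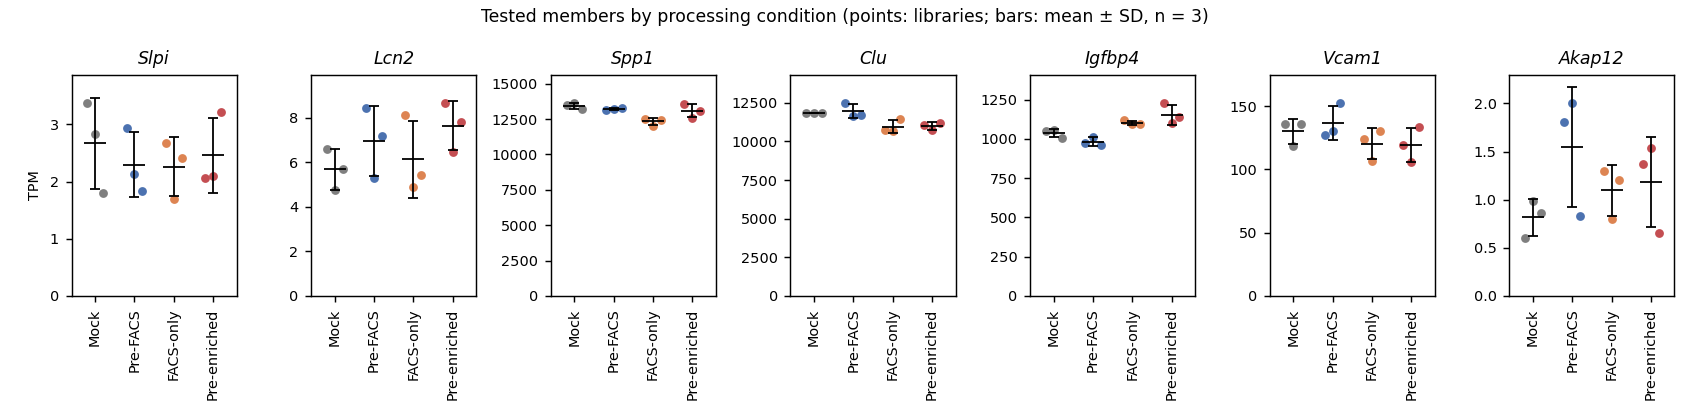
TPM of the 7 tested members in the 12 workflow libraries by condition, 1 point per library, with the mean and SD of 3. Igfbp4 runs from 960 to 1225 TPM, with its lowest values in Pre-FACS, and no member passed the threshold of limma.

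Receptors, ligands and partners of the members were taken from lists that leave the members out, and each is given by the number of genes whose Bulk RNA values lay above or below all 12 workflow values. Over all genes in both tables, 27.5% lay above and 33.5% below in this way. For this and every later list, counts near these shares do not set a list apart. In the epithelial defence and NF-kB-inducible secreted genes, 12 of 21 were above and 8 below, with a median log2 difference of 0.71, against −0.05 over all genes. Csf3, the granulocyte growth factor, had 232 and 228 TPM against 0.0967 to 2.37 TPM, Cxcl2, a neutrophil chemokine, 348 and 340 against 2.95 to 14.1, and Il23a, a cytokine subunit, 50.3 and 45.7 against 0 to 2.00 TPM. The list was not of a single direction, since Cxcl10 was at 0.251 and 0.498 TPM in Bulk RNA and at 3.93 to 8.28 TPM in the workflow libraries. Among the workflow conditions, 1 of 19 tested genes of this list was called, Cxcl1 in FACS-only against Pre-FACS (log2 difference 0.63, SE 0.107, adjusted p = 0.0368 by limma). No gene of the other 8 partner lists was called by limma in any of the 7 comparisons.

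For partners of lipocalin-2, lactoferrin and SLPI, 2 of 5 were above and 3 below (median −0.17). Slc22a17, a lipocalin-2 receptor, had 15.4 and 17.3 TPM against 2.29 to 5.15 TPM, and Lrp1, a lactoferrin receptor, had 6.72 and 6.25 against 23.0 to 37.8 TPM. Grn, which codes for progranulin, a substrate that SLPI protects from elastase, was at 150 and 159 against 321 to 362 TPM. Lrp2, a further lipocalin-2 receptor, was analysed in the workflow libraries alone, at 0.0913 to 0.862 TPM. The osteopontin list had 5 of 12 above and 5 below (median 0.16). In it, Itgb3, an integrin chain that binds osteopontin, was at 3.06 and 3.03 TPM against 37.5 to 53.0 TPM, while Cd44, another osteopontin receptor, was at 347 and 349 against 106 to 132 TPM. Itgav, the partner chain of Itgb3, was at 221 and 209 against 133 to 172 TPM. In the sorted pools Itgav instead lay below the workflow range, with 68.9 TPM the highest. In Bulk RNA these receptors differed in direction, and Itgb3 had that of Spp1 itself. Fam20c, the kinase that phosphorylates osteopontin, had a log2 difference of −2.11, and Plau, a protease, one of 2.02. Itga4, a chain of a receptor of osteopontin and VCAM1, was analysed in the workflow libraries alone, at 0.0274 to 0.664 TPM. The clusterin list had 3 of 10 above and 5 below (median −0.31), with Apoe, a lipoprotein component, at 2.44 and 1.55 TPM against 42.8 to 53.4 TPM. Apob, another lipoprotein component, was at 11.2 and 10.7 against 96.0 to 153 TPM, and Nusap1, a spindle protein, had a log2 difference of −1.49.

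In the IGF axis, 3 of 12 were above and 5 below (median −0.09). Igfbp3 and Igfbp7, relatives of Igfbp4, were lower in Bulk RNA as well, at 80.8 and 89.4 TPM against 175 to 224, and at 617 and 619 against 1076 to 1248 TPM. Htra1, a secreted protease, was higher, with 275 and 274 TPM against 16.0 to 28.7 TPM, as was Igf2r, which clears IGF2, with 36.6 and 37.9 against 1.01 to 3.84 TPM. Stc1, a secreted glycoprotein, had a log2 difference of −1.48, and the receptor Igf1r was at 10.6 and 10.2 against 6.63 to 10.4 TPM, which overlapped. Igfbp6 was under 1 TPM in each of these 14 libraries, and Igfbp2 and Igfbp5 were under 1 TPM in the workflow libraries, where alone they were analysed. For the GAS6 axis 3 of 8 were above and 4 below (median −0.42). Axl (691 and 669 TPM against 508 to 570) was higher in Bulk RNA, as Gas6 was. So was Tyro3 (14.5 and 13.9 against 5.95 to 9.87). In the sorted pools of the same table, both receptors instead lay below the workflow range. The highest pool had 270 TPM of Axl, and the highest for Tyro3 had 5.79 TPM. Lying below that range was common among all genes in the pools. Pros1, the other ligand, was lower in Bulk RNA, at 6.94 and 8.46 TPM against 34.3 to 39.4 TPM. Ggcx, the carboxylase that activates vitamin K-dependent proteins, and Adam10, a sheddase, had log2 differences of −0.93 and −0.83. Mertk was analysed in the workflow libraries alone, at 0.561 to 2.20 TPM.

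The VCAM1 list had 5 of 11 above and 4 below (median 0.19). Icam1, a related adhesion receptor, was at 47.5 and 50.1 TPM against 147 to 175 TPM, in the direction of Vcam1, and Itgb7, a chain of one of its integrin ligands, was at 32.0 and 26.4 against 0.146 to 3.14 TPM. Cadm1, an adhesion molecule, had a log2 difference of −1.82. The AKAP and kinase scaffold list had 5 of 18 above and 6 below, with a median of 0.03. Prkar2b and Prkar1b, regulatory subunits of protein kinase A, had log2 differences of −1.87 and 1.77. The Ly6/uPAR family had 6 of 10 above and 1 below (median 0.97). Ly6a, a stem and progenitor surface marker, was at 2177 and 2146 TPM against 102 to 153, Ly6e at 1840 and 1862 against 442 to 510, and Lypd6b at 61.0 and 59.9 against 0.679 to 2.52 TPM. Some Ly6 genes are near copies of each other, so the division of reads among them is uncertain.

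**Figure D5:**
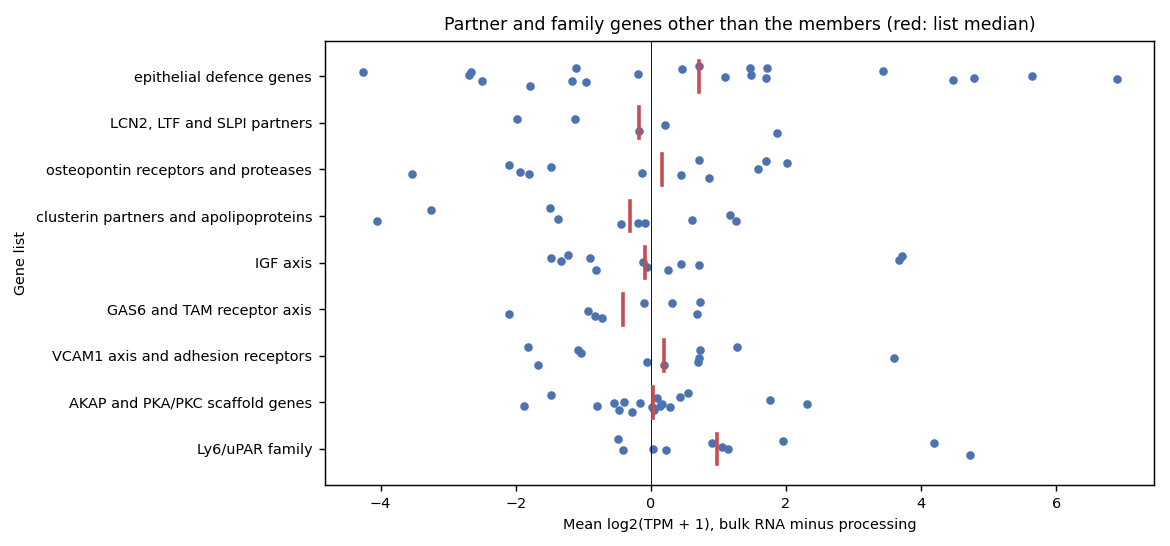
Log2 difference of Bulk RNA and workflow means for each gene of the partner lists, 1 point per gene, with the list's median. Medians lie between −0.42 and 0.97, and the points of each list lie on both sides of 0.

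On mm10 (GENCODE M21), all 10 genes are protein coding. Slpi lies at chr2:164354070-164389095 and Lcn2 at chr2:32384633-32388252, both on the minus strand, Spp1 at chr5:104435118-104441050 and Clu at chr14:65968483-65981547 on the plus strand, Igfbp4 at chr11:99041244-99054392 and Ltf at chr9:111019271-111042767 on the plus strand. Gas6 lies at chr8:13465374-13494490, Vcam1 at chr3:116109949-116129688 and Ly6d at chr15:74762056-74763620 on the minus strand, and Akap12 at chr10:4266380-4359470 on the plus strand. Exons of Gas6 overlap those of Tmem255b and exons of Vcam1 those of Gm43109 on the opposite strand, and exons of Spp1 overlap Gm42793 and those of Slpi overlap Mir7678 on the same strand. Reads from such overlaps cannot be told apart in unstranded libraries, and how they were assigned is not stated.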

How the data were processed

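PD798 libraries were sequenced as paired-end reads by the authors, aligned to mm10 with ERCC sequences by STAR (2.52 in the submitters' processing notes), counted per gene by featureCounts, upper-quartile normalized with EDASeq and converted with effective gene lengths. The deposited values are TPM, in 2 tables normalized separately, and all columns of values were mapped to samples (0 not used). TPM keeps no depth, so counting error is unknown and no count test was run. Upper-quartile scaling assumes that libraries share the level of most expressed genes.

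Levels were compared as log2(TPM + 1). The 4 workflow conditions, with 3 libraries each, were tested with limma 3.58.1 in R 4.3.3 (mean-variance trend, F test and 6 pairs), for genes that reached 1 TPM in 3 or more of 12 libraries, with Benjamini-Hochberg adjustment over 12159 genes and a threshold of 0.05; the script was tested on simulated data. Other steps used Python 3.11.15. Across the 2 tables only differences, ranks and non-overlap were computed. Start-site windows came from RefSeq GRCm38.p6 and gene positions from GENCODE M21. All 10 members are named, for each partner list the 3 genes with the largest difference, direct receptors or ligands of a member and other Igfbp genes, for each member the 3 most similar genes, and for each pair of conditions the member of smallest p. Cxcl10, Cxcl1 among the conditions and marker genes were named after their values were seen. A few items that these rules or the line's description would name are not reported here. Members and lists were chosen with earlier results of these data known. Alternatives were another pseudocount, filter, scaling, limma without a trend, a replicate block, and leaving out each library in turn.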

Additional observations from a re-analysis of the deposited data

How the results depend on the processing

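With the replicate number as a block, Igfbp4 was called among the 4 conditions (adjusted p = 0.0462 by limma) and in Pre-enriched against Pre-FACS, so that the replicate block gave 1 member called in each of those comparisons in place of 0, with 61 and 37 genes called in place of 13 and 6. It changed no other call of a member. The numbers were not shown to pair the libraries: correlations of deviations between same-numbered libraries ran from −0.0422 to 0.229 over the 6 pairs of conditions. The numbers of members called in the limma comparisons stayed at 0 when each library was left out in turn (lowest 0, highest 0), and under the other pseudocount, filters, scaling and trend. Without each library in turn the adjusted p of Igfbp4 by limma ran from 0.102 to 0.386 for Pre-enriched against Pre-FACS and from 0.226 to 0.516 among conditions.

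With a pseudocount of 0.1, none of the 9 differences between tables changed sign, and their sizes ran from 6.01 to 10.93 in place of 5.54 to 10.47. Rescaling to the genes in both tables moved them by at most 0.0083, quantile normalization by −0.12 to 0.13, and leaving out either Bulk RNA library changed no sign. Levels near 0, such as Ly6d, Gas6 and Vcam1, are limited by the depth, which TPM does not show. Leaving out single cells 6 and 9 and 10-cell pools 5 and 12, an alternative chosen after seeing the data, took the samples with Ltf above 0 from 11 of 29 to 7 of 25.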
